A study of Capra hircus with 3 samples.

Results

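The small RNAs of 24 and 25 nt in the skin of the Shanbei White cashmere goat were examined in anagen (hair growth), catagen (regression) and telogen (rest). Small RNA sequencing reads a cDNA copy of each short RNA, and identical reads are collapsed into a distinct sequence, here called a tag, with its number of reads. Skin of 10 adult goats was mixed into 1 pool for each stage and 1 library was made from it. Each stage was therefore measured once, so there is no replicate check, and the intervals given (95%) cover counting error only. They treat reads as independent, which copies made by PCR are not, so they may be too narrow even for that. No treatment or genotype separates the groups, and the stage is the only difference the labels give.

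The tags were selected on their length, 24 or 25 nt, and on an ending other than CCA, the tail of mature tRNA, and 24 nt had been picked as the commonest length of distinct tags. This left 754494 distinct tags out of 4043974 of all lengths, after 16882 tags of these lengths with the tRNA tail were set apart. Of the 754494 tags, the anagen library held 235328, the catagen library 225439 and the telogen library 408521. A tag was called an extension when it held, as an exact part, a 22 or 23 nt tag with 1000 or more reads summed over the 3 libraries, here called its parent. The remaining tags are called the other tags. At the limit itself, 1 tag with 1000 reads was a possible parent and was held by 1 tag with 2 reads, and 3 tags with 999 reads just missed it and were held by 16 tags with 123 reads.

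A microRNA (miRNA) is cut from a hairpin precursor first by Drosha and then by Dicer, and most mature miRNAs are slightly shorter than the tags studied here. Its bases 2 to 8, the seed, choose the messenger RNAs that it silences. The ends of mature miRNAs vary, because the cuts are not exact and because nucleotidyl transferases add U or A to the 3′ end, so longer forms (isomiRs) accompany the standard one. Fragments of ribosomal and transfer RNA of similar length are also cloned with small RNAs.

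The leading extensions of let-7b are shown first, because let-7b was the parent with the most extension reads. In the parent the seed is in capitals, in the extensions the added bases are in capitals, and T stands for U.
let-7b parent: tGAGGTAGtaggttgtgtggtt
let-7b extension with UU: tgaggtagtaggttgtgtggttTT
let-7b extension with AU: tgaggtagtaggttgtgtggttAT
let-7b extension with AA: tgaggtagtaggttgtgtggttAA
let-7b extension with UA: tgaggtagtaggttgtgtggttTA
The parents of the other let-7 members found here share this seed and differ from let-7b within the body of the miRNA.
let-7a parent: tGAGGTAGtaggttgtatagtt
let-7c parent: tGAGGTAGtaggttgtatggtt
let-7e parent: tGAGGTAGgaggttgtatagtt
let-7f parent: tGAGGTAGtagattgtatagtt
let-7i parent: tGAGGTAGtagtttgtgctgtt
The most read extension of other leading miRNAs shows which bases were added in each, again in capitals.
miR-320a: aaaagctgggttgagagggcgaAT
miR-146b: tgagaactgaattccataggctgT
miR-23a/miR-23b: atcacattgccagggattaccaCT
miR-26a: ttcaagtaatccaggataggctTT
miR-21: tagcttatcagactgatgttgaCA
miR-140: TaccacagggtagaaccacggacA
miR-10a: taccctgtagatccgaatttgtGA
miR-10b: taccctgtagaaccgaatttgtGA
miR-206: tggaatgtaaggaagtgtgtggTT
miR-1: tggaatgtaaagaagtatgtatTT
miR-133a: ttggtccccttcaaccagctgtTT
miR-451: aaaccgttaccattactgagtttA

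The names follow a list of tags per conserved miRNA that the study supplies, of which 2697 tags were held in a shortened copy, and a parent took the name with which it shared the longest exact stretch of at least 18 nt. No goat hairpin sequence was used, so bases that continue the precursor and bases added after cutting were not told apart.

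Most parents carried no listed name. Of such parents among the 12 with the most extension reads, 8 are shown by the extension of each with the highest TPM summed over the libraries (reads per 1000000 clean reads), with the added bases in capitals, and each is numbered by the rank of its parent. Parent 2 has another extension with almost as high a sum, and both are shown. They were printed after their values were seen and were not placed on a goat sequence.
Unnamed parent 2: gactcttagcggtggatcactcgGC
Unnamed parent 2, shorter form: gactcttagcggtggatcactcgG
Unnamed parent 3: Tgcagttaaaaagctcgtagttgg
Unnamed parent 4: gccgacttagaactggtgcggaCC
Unnamed parent 6: GcgcctagcagccgacttagaactG
Unnamed parent 9: CCatacccggccgtcgccggcagt
Unnamed parent 10: GaggtgtagaataagtgggaggccC
Unnamed parent 11: agtgacgaaaaataacaatacagG
Unnamed parent 12: agaggtgtagaataagtgggaggCC
From general knowledge and not from any file, these resemble stretches of mammalian ribosomal RNA. Among the parents, 4 and 6 share an overlapping stretch, as do 10 and 12.

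Tags of 24 and 25 nt took 1423961 of 15997828 clean reads of the anagen library, or 8.90% (8.89% to 8.92%). The catagen library gave 1678337 of 18111912, or 9.27% (9.25% to 9.28%). The telogen library gave 3504877 of 27016012, or 12.97% (12.96% to 12.99%). The telogen share was above both others by far more than the width of the intervals, and anagen and catagen lay close together. By distinct tags the shares were 17.98%, 17.0% and 19.6%, so the order of anagen and catagen turned. On average a distinct tag had 6.05, 7.45 and 8.58 reads by stage in that order, and tags with 1 read made up 83.4%, 81.9% and 80.6% of them. Reads per tag grow with depth, and telogen was sequenced deepest. Tags of the same lengths with the tRNA tail were few, at 0.429%, 0.708% and 0.799% of clean reads.

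Extensions held most of the reads in a small part of the tags. In anagen they took 63.9% of the reads of 24 and 25 nt tags (63.8% to 64.0%) in 4.36% of the distinct tags. In catagen they took 66.5% of the reads (66.4% to 66.5%) in 5.32% of the tags, and in telogen 64.6% (64.5% to 64.6%) in 3.78%. The share of reads was thus alike in size in the 3 libraries, with catagen highest and its interval above the others. The mean number of reads of an extension was 88.7, 93.0 and 147, against 2.28, 2.64 and 3.16 for another tag. The classes are defined by a limit on reads in these same libraries, so this contrast follows in part from the definition. With parents counted only in the library itself, the shares came to 44.5%, 47.6% and 56.4%, and telogen, the deepest library, then stood highest.

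Of the 1381 possible parents, 965 had at least 1 extension, and 174 of these carried a listed name, covering 79 names. Extensions of listed miRNAs made up 17.7%, 17.7% and 12.4% of the reads, again for anagen, catagen and telogen. Extensions without a listed name made up 46.2%, 48.7% and 52.2%. The telogen library was lowest for listed miRNAs and highest for the unnamed class. Since the list was held in a shortened copy, some unnamed extensions may belong to miRNAs missing from it, and the split bears that limit. The 2 lengths differed in the same respect. At 24 nt, listed miRNAs held 26.1%, 26.5% and 19.5% of the reads in anagen, catagen and telogen, and at 25 nt only 4.999%, 5.11% and 3.29%.

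Between the classes the side of the added bases differed. Of the reads that extended a listed miRNA, 98.1% in anagen, 95.7% in catagen and 96.9% in telogen were longer at the 3′ end alone. A listed miRNA was longer at the 5′ end alone in 0.273%, 0.591% and 0.829% of the reads, and at both ends in 1.61%, 3.72% and 2.31%. The unnamed class was longer at the 3′ end alone in 41.8%, 47.3% and 42.0% of its reads, and at the 5′ end alone in 41.3%, 35.5% and 40.7%. An added base at the 5′ end shifts bases 2 to 8 against those of the parent. Among extensions of listed miRNAs, the tag of this kind with the most reads belonged to miR-140, a miRNA known from cartilage. It is shown above with T added before the parent and A after it, and is not itself in the study's list. The parent is only the more read tag by the definition used here and need not be the standard form. That tag had 2088 reads in anagen (131 TPM), 7152 in catagen (395 TPM) and 5006 in telogen (185 TPM).

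By reads, the base added to a 23 nt parent with a listed name was mostly U. In anagen it was U in 84.0% of 23432 reads (83.6% to 84.5%). Catagen had U in 83.1% of 34631 (82.7% to 83.5%) and telogen in 84.1% of 52909 (83.8% to 84.4%). A followed with 14.5%, 13.4% and 10.8%, and C stayed at 0.239%, 0.563% and 0.469%. Counted by distinct tags the preference was gone, with U in 30.3%, 31.6% and 29.9%, since few tags carry the reads. A single tag carried most of the added U. miR-146b, a miRNA induced by inflammatory signals, ended in this U in 13191, 20598 and 32945 of these reads in anagen, catagen and telogen. That 24 nt tag is itself among those the study lists for miR-146b. Its last U therefore counts as added only under the definition by length used here, and the preference for U rests largely on it. In the unnamed class no base dominated, with G in 37.8%, 31.2% and 37.8% of the reads and U in 31.1%, 30.2% and 25.7%.

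The first base differed between the classes as well. Extensions of listed miRNAs started with U in 84.7%, 78.6% and 80.4% of reads in anagen, catagen and telogen, and ended in U in 69.7%, 69.1% and 69.9%. By distinct tags U came first in 50.9%, 50.6% and 52.2% and last in 37.9%, 38.6% and 37.8%, and let-7b alone held 54.0% of the reads over the 3 libraries. Unnamed extensions started most often with G, in 32.0%, 33.0% and 32.2% of reads, and ended most often in G, in 40.1%, 33.3% and 38.9%. The other tags started with U in 21.7%, 21.1% and 22.7% of reads and ended most often in G, in 30.5%, 28.3% and 31.3%. The absence of CCA endings is set by the selection, which lowers the share of A as last base.

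let-7b, one of the let-7 miRNAs that rise as cells differentiate, held 54.0% of all extension reads of listed miRNAs. Its main parent had 480445 reads in anagen (30031.9 TPM), 583490 in catagen (32215.8 TPM) and 746092 in telogen (27616.7 TPM). The extensions of that parent had 154038, 140359 and 226034 reads. Set against parent and extensions together, anagen had 24.3% extended (24.2% to 24.4%), catagen 19.4% (19.3% to 19.5%) and telogen 23.3% (23.2% to 23.3%). Catagen was lowest and the 3 intervals did not overlap. Among 24 nt extensions of let-7b, UU ended 48.6%, 49.4% and 48.5% of reads by stage. AU followed with 23.4%, 23.9% and 24.7%, AA with 14.4%, 13.6% and 13.8%, and UA with 10.9%, 9.93% and 10.1%. The order of the 4 tails was the same in each library. The UU form alone had 66572 reads in anagen (4161.3 TPM), 61507 in catagen (3395.9 TPM) and 97657 in telogen (3614.8 TPM), a log2 ratio of 0.29 for anagen over catagen (exact interval 0.28 to 0.31), 0.20 for anagen over telogen and -0.09 for catagen over telogen.

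The other let-7 members were extended far less, although let-7a and let-7f had more parent reads than let-7b. let-7a, with 1684557, 1401856 and 1922456 parent reads, was extended in 0.632% (0.621% to 0.644%), 0.671% and 0.765% of reads in anagen, catagen and telogen. let-7f, with 1695276, 1263966 and 1693820 parent reads, stood at 0.324%, 0.384% and 0.405%. let-7c lay at 1.84%, 1.76% and 1.83%, let-7e at 3.58%, 3.86% and 4.06%, and let-7i at 4.89%, 2.92% and 3.70%. Over all its parents let-7b was at 21.9%, 17.9% and 21.02%, so every other let-7 member with an extension was below it in each library. The tails differed too. For let-7a at 24 nt, AA led with 45.4%, 43.3% and 46.0% and UU followed with 25.6%, 26.8% and 24.2%. In let-7f, AA reached 63.9%, 65.0% and 65.9%. For let-7i, UU reached 66.8%, 61.7% and 65.6%. The let-7 list had extensions for 6 of its 9 members, while no parent took the name let-7d, let-7g or miR-98 from the shortened list, which does not show that these lack extensions. The 6 together lay at 11243.2 TPM in anagen, 9051.0 in catagen and 9695.8 in telogen.

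Across the 79 names the extended share, over the 3 libraries together, ran from 0.112% for miR-2285e to 74.5% for miR-146b, with a median of 5.87%. It was under 1% in 12 names, from 1% to 10% in 38, from 10% to 50% in 26, and at 50% or more in 3, namely miR-146b, miR-2904 and miR-2887. The first 5 names held 77.4% of the reads and the first 10 held 87.3%. miR-320a, which is made without Drosha, was extended in 33.7%, 33.3% and 37.3% of reads in anagen, catagen and telogen. Its 24 nt forms ended in AU in 33.5%, 38.5% and 36.3% and in UU in 36.1%, 32.7% and 32.3%, so the leading tail changed between the libraries. miR-146b was extended in 71.7%, 80.4% and 72.4%, and its 24 nt form is itself among the tags the study lists for that miRNA, as are 102 extensions in all. That form thus counts as an extension only under the definition by length used here.

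Particular tails marked some miRNAs in all libraries. miR-21, a miRNA raised in injury and fibrosis, ended in CA in 60.8%, 59.3% and 63.3% of its 24 nt extension reads and in CU in 20.3%, 19.8% and 19.9%. One parent is not itself in the list and shared its longest stretch with listed tags of both miR-23a and miR-23b. For this miR-23 tag, CU reached 81.6%, 83.6% and 82.8%. miR-26a, a regulator of the methyltransferase EZH2, ended in UU in 72.9%, 72.7% and 70.5%. miR-10a, whose gene lies among the Hox genes, ended in GA in 71.6%, 66.3% and 68.2%, and miR-10b in 58.9%, 58.3% and 55.3%. The first added base was C for most 24 nt extension reads of miR-21 and of the miR-23 tag and G for most of miR-10a and miR-10b, while for let-7b it was mostly U or A.

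Muscle miRNAs showed the widest differences between libraries. miR-206, found in skeletal muscle, had 43 extension reads in anagen (2.69 TPM), 8720 in catagen (482 TPM) and 3351 in telogen (124 TPM). For anagen over catagen the log2 ratio was -7.48 (exact interval -7.95 to -7.05), -5.53 for anagen over telogen (-6.00 to -5.10) and 1.96 for catagen over telogen (1.90 to 2.01). Anagen was lowest and catagen highest. Its parents followed the same order with smaller differences, at -4.66, -2.77 and 1.89. The extended share of miR-206 was 2.41% in anagen (1.80% to 3.24%), against 14.9% in catagen (14.6% to 15.2%) and 14.3% in telogen (13.9% to 14.8%).

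miR-1, a miRNA of heart and skeletal muscle, had 52, 2631 and 1197 extension reads, although its parents reached 55873, 1240022 and 488713 reads. Its extended share was therefore only 0.0930% in anagen (0.0709% to 0.122%), 0.212% in catagen and 0.244% in telogen. For miR-133a, a miRNA of the same tissues, 20 extension reads in anagen stood against 875 in catagen and 482 in telogen, and the extended share was 11.0% (7.23% to 16.4%), 18.9% (17.8% to 20.1%) and 21.5% (19.8% to 23.2%). In all 3 of these miRNAs the anagen share was the lowest and its interval lay below those of both other libraries. No listed tag of miR-133b, the remaining miRNA of the muscle list, served as a parent. In whole skin, fewer muscle cells and less of these RNAs per cell cannot be told apart, and whether the extended share moves with the amount of muscle in a pool was not tested.

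In the lists of other cell types the differences were smaller. miR-451, a red blood cell miRNA cut by Argonaute in place of Dicer, had 1250, 2153 and 1457 extension reads in anagen, catagen and telogen, that is 78.1, 119 and 53.9 TPM. Catagen over telogen came to 1.14 (1.04 to 1.24), with 1.60 for its parents. miR-486 of the same list had 79, 350 and 467 reads, that is 4.94, 19.3 and 17.3 TPM. Its catagen over telogen ratio was 0.16 (-0.04 to 0.36), which includes 0. For anagen over telogen the 2 miRNAs went opposite ways, at -1.81 for miR-486 and 0.53 for miR-451. No listed tag of miR-144 served as a parent. For the epithelial list 3 of 10 members had extensions. miR-205, a keratinocyte miRNA, had 321, 622 and 957 reads, with anagen lower by a log2 ratio of -0.78 against catagen and -0.82 against telogen. miR-429 of the miR-200 family had 111, 162 and 329 reads and was extended in 25.4%, 30.5% and 33.9%, and miR-183 had 22, 16 and 33 reads, with intervals of its ratios on both sides of 0. In the dermal and smooth muscle list 2 of 5 members had extensions, and miR-199a, a fibroblast miRNA, lay at 49.6, 95.7 and 87.7 TPM. miR-143, a smooth muscle miRNA, lay at 48.9, 52.8 and 65.4 TPM. No listed tag of miR-122, the liver miRNA, served as a parent. This does not show that these miRNAs lack extensions.

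The unnamed parents formed runs of overlapping tags. When parents that overlap exactly by at least 18 nt were joined, 334 groups without a name resulted, of which 37 held 5 or more parents, and the first 10 groups took 43.2% of the unnamed extension reads. The group with the most reads, led by parent 10 and made of 37 parents, had 55905 extension reads in anagen (3494.5 TPM), 76373 in catagen (4216.7 TPM) and 180060 in telogen (6664.9 TPM). For unnamed parent 2, the 23 nt parent itself had far fewer reads than its extensions. The parent had 1200, 1167 and 2123 reads and its extensions 24686, 27909 and 61981, so that 95.4%, 96.0% and 96.7% was extended. Of the 965 parents, 309 had more extension reads than reads of their own, and 6 of these carried a listed name.

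The leading unnamed extensions differed in order between the libraries. The tag of parent 3, with U before the parent, had 7937 reads in anagen (496 TPM), 1478 in catagen (81.6 TPM) and 18353 in telogen (679 TPM), and anagen over catagen came to 2.60 (2.52 to 2.69) and catagen over telogen to -3.06. Other extensions of the same parent did not follow it, since the parent's extensions together had 15965 reads in anagen (998 TPM), 21869 in catagen (1207.4 TPM) and 47658 in telogen (1764.1 TPM). For parent 11 catagen was lowest, with 448, 175 and 451 TPM, and anagen and telogen differed by a log2 ratio of -0.01 (-0.05 to 0.03), which includes 0. Parent 9 was lowest in catagen as well, at 429, 173 and 578 TPM, and parent 6 at 408, 260 and 430 TPM. The tags of parents 10 and 12, which overlap, were lowest in anagen and highest in telogen, at 144, 219 and 354 TPM and at 104, 138 and 262 TPM. Parent 4 had 273, 396 and 424 TPM and the form of parent 2 with GC added had 647, 549 and 775 TPM. The form of parent 2 with G alone had 401, 565 and 911 TPM, so anagen was below catagen in it and above catagen in the longer form.

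Most of the other tags had 1 read, at 85.3%, 84.2% and 82.2% of them by stage in the same order, and 90.2% of them occurred in 1 library only, with 31.6% of the reads. The 3.48% that occurred in all 3 libraries held 60.7% of the reads. Among extensions of listed miRNAs, 44.2% of tags occurred in 1 library only, with 0.251% of the reads. The 35.0% of them in all 3 libraries held 99.2% of the reads. Extensions hold a deeply read tag by definition, which bears on this contrast. Some of the other tags were near relatives of deeply read tags. In anagen, catagen and telogen 22.9%, 29.2% and 27.97% of their reads held a 22 or 23 nt tag with at least 100 but under 1000 reads, so they missed the limit for a parent. A further 17.7%, 17.2% and 20.3% were an exact part of a tag longer than 25 nt with 1000 or more reads, in only 0.732%, 0.766% and 0.447% of the tags. Those that held a parent with 1 base changed made up 10.3%, 8.40% and 8.76% of the reads and 9.36%, 9.08% and 8.96% of the tags. No such relation was found for 48.1%, 44.6% and 42.0% of the reads and 85.3%, 84.7% and 86.5% of the tags. A stretch of at least 18 nt of a listed miRNA tag was present in 1.68%, 2.41% and 1.83% of the reads.

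The most read of the other tags and its relative are shown with the base that separates them in capitals, as is a tag that differs at 1 base from the longer form of unnamed parent 2 shown above.
Most read other tag: gcattgtggttcagtggtagaattc
Tag 1 base longer: gcattGgtggttcagtggtagaattc
Tag with 1 base changed: gactcttagcgTtggatcactcggc
The most read other tag had 2960 reads in anagen (185 TPM), 3498 in catagen (193 TPM) and 17463 in telogen (646 TPM). Anagen and catagen differed by a log2 ratio of -0.06 (-0.13 to 0.01), and telogen was higher than both, at -1.80 for anagen over telogen and -1.74 for catagen over telogen. The tag with 1 base more, at 26 nt, had 16078, 30387 and 119848 reads, and from general knowledge it resembles the 5′ part of a glycine tRNA. The tag with 1 base changed had 535, 586 and 1678 reads, against 10345, 9946 and 20942 for the tag it resembles.

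The remaining 8 of the 10 most read other tags had from 2381 to 9939 reads in the 3 libraries together. The first of them had 3506 reads in anagen (219 TPM), 889 in catagen (49.1 TPM) and 5544 in telogen (205 TPM), lowest in catagen. Another, with 1497, 127 and 1724 reads, had the largest ratio of the well-read other tags (100 or more reads in each library of the pair), 3.74 for anagen over catagen (3.48 to 4.01), and was again lowest in catagen.

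The libraries were then compared tag by tag, with a tag called when its TPM differed by more than 2-fold and it reached 1 TPM in at least 1 library of the pair. This rule carries no test. For anagen over catagen, 1561 of 7890 tags of 24 and 25 nt were higher in anagen (19.8%) and 2563 were lower (32.5%), where over tags of all lengths 27.2% were higher and 28.4% lower. The median log2 ratio was -0.45, and -0.18 over all lengths. For anagen over telogen, 377 of 8648 were higher in anagen (4.36%) and 3854 lower (44.6%), against 18.7% and 30.1% over all lengths, with medians of -0.89 and -0.45. For catagen over telogen, 452 of 8741 were higher in catagen (5.17%) and 2848 lower (32.6%), against 14.8% and 26.2%, with medians of -0.50 and -0.22. More of the tags of 24 and 25 nt were lower than telogen than of tags at large, in both pairs. These comparisons share libraries. For anagen over catagen, 36 of 518 listed extensions were higher (6.95%) and 145 lower (27.99%), and 349 of 2115 unnamed extensions were higher (16.5%) and 663 lower (31.35%). For anagen over telogen, 31 of 495 listed extensions were higher (6.26%) and 98 lower (19.8%), and 55 of 2135 unnamed ones were higher (2.58%) and 896 lower (41.97%). In catagen over telogen, 59 of 502 listed extensions were higher (11.8%) and 18 lower (3.59%), and of the unnamed extensions 98 of 2157 were higher (4.54%) and 591 lower (27.4%), the last near the share over all lengths.

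The same limit of 100 reads was set for extensions. Among extensions that met it, the 3 with the largest ratio in each pair all belonged to parents without a listed name. The limit kept muscle miRNAs out of the pairs with anagen. The UU form of miR-206 had 13, 2043 and 664 reads by stage and that of miR-1 had 8, 927 and 336. Unnamed extensions are thus not shown to differ most. The largest ratio within the limit for anagen over catagen was 3.35 (3.08 to 3.63), from 1111, 123 and 865 reads by stage. For anagen over telogen it was -2.69 (-2.98 to -2.42), from 114, 308 and 1246 reads. In catagen over telogen it was -3.50 (-3.71 to -3.31), from 1308, 216 and 3654 reads. In the same pair another extension went the opposite way, at 3.28 with an exact interval past the 2-fold limit, with 89, 800 and 123 reads, so catagen alone was high. That tag was singled out by size only and its origin is not analysed here.

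Finally, the first base of the tags of 24 nt set anagen apart. Among distinct tags of 24 nt, A came first in 53847 of 143908 tags in anagen, which is 37.4% (37.2% to 37.7%), in 36782 of 122558 in catagen, which is 30.01% (29.8% to 30.3%), and in 57249 of 211474 in telogen, which is 27.1% (26.9% to 27.3%). The neighbouring lengths gave 27.9% at 23 nt and 27.96% at 25 nt in anagen, 27.2% and 27.0% in catagen, and 26.3% and 26.3% in telogen. The share at 24 nt was thus above both neighbours in each library, most in anagen and least in telogen. In numbers of tags with A first, anagen had 30947 at 23 nt, 53847 at 24 nt and 25565 at 25 nt. In telogen the same lengths had 54494, 57249 and 51794.

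The excess lay in rarely read tags. Among anagen tags of 24 nt read once and in no other library, A came first in 40.9% (40.6% to 41.2%), against 29.4% at 23 nt and 29.3% at 25 nt. Among those with 3 or more reads the share was 24.5% (23.8% to 25.3%), with an interval of 23.4% to 24.9% at 23 nt and of 23.2% to 24.85% at 25 nt, both overlapping it. The once-read tags of 24 nt in anagen also held less G and C, at 46.6% of bases against 49.5% at 23 nt and 50.5% at 25 nt, and started with C in 16.8% against 22.8% and 22.9%. Once-read tags of catagen had A first in 32.2% at 24 nt, against 28.6% at 23 nt and 28.3% at 25 nt. Their G and C share was 50.3%, against 51.0% and 51.4%. In telogen the G and C share was 51.1% at each of the 3 lengths. Of the other tags of 24 nt in anagen, those with A first recurred in another library in 12.2% of cases (11.9% to 12.4%), against 25.8% for C, 24.8% for G and 19.7% for U. In catagen A was lowest too, at 19.2% against 27.0% for C, 28.2% for G and 23.7% for U. For telogen the 4 bases lay between 15.0% and 20.4%, again with A lowest. This pattern was chosen after the values were seen. No goat genome was used, so tags from goat RNA and tags from another organism cannot be told apart here.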

How the data were processed

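Small RNA was measured in 3 libraries (anagen, catagen and telogen), each from 1 pool of 10 goats and with 15997828, 18111912 and 27016012 clean reads. Reads of low quality, without an insert or 3′ adapter, with poly(A) or shorter than 18 nt had been removed by the authors, who deposited every distinct clean tag with its unnormalised count of reads. The filtering records deposited by the authors were used only to check the totals of these counts. No alignment or genome build enters the values, and the programs that filtered the reads and collapsed them into tags are not given in the sources used here.

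Tags of 24 and 25 nt were classed by exact matching in Python 3.11.15 with pandas 2.3.3. TPM was computed as reads per 1000000 clean reads. Shares carry 95% Wilson intervals, and log2 ratios carry exact (Clopper-Pearson) intervals from SciPy 1.17.1. With 1 library per stage no test across tags could be fitted, and the intervals cover only the counting error of reads taken as independent. The matching and intervals were tested on simulated data. A share with 0 reads allows up to 3 reads, which is 0.188, 0.166 and 0.111 TPM in anagen, catagen and telogen.

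The tags and miRNA lists were chosen with earlier results of these data known. The tags named are the extension with the highest TPM summed over the libraries for each of the 12 parents with the most extension reads (also by summed TPM), the 3 most read tags longer at the 5′ end, the 10 most read other tags, and for each pair and class the 3 tags whose ratio was largest, given 100 or more reads in each library of the pair. A tag that this rule names is not reported here. The rule gave no sequence for a tag without a name unless a goat reference held it. None was used, so the unnamed sequences printed are an exception made after their values were seen, as are the miRNAs named for their extended share or tails. Alternatives were other limits and lengths for parents, distinct tags, equal depth, the tRNA tail included, size factors and other minimum reads, and for the first base A those added after seeing the data.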

Additional observations from a re-analysis of the deposited data

How the results depend on the processing

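Values are given for anagen, catagen and telogen in that order. The cause of each shift was not tested unless the setting itself changes the tags counted. The share of reads in extensions became 44.5%, 47.6% and 56.4% with parents counted in the same library, 79.3%, 82.8% and 82.4% with parents of 100 or more reads, 31.0%, 32.6% and 27.9% with 10000 or more, 67.2%, 69.8% and 68.0% with parents of 18 to 23 nt, 4.36%, 5.32% and 3.78% by distinct tags, 59.5%, 63.4% and 62.2% without let-7b's main parent, and 64.6%, 67.3% and 65.4% with the tRNA tail included. The share of clean reads became 17.98%, 17.0% and 19.6% by distinct tags and 9.33%, 9.97% and 13.8% with the tRNA tail. First base U of the other tags became 24.1%, 24.5% and 26.6% by distinct tags, 21.9%, 21.3% and 22.98% without the most read one, 22.5%, 21.8% and 23.4% at 24 nt, 20.8%, 20.4% and 21.9% at 25 nt, and 21.5%, 20.9% and 22.4% with parents of 18 to 23 nt. The single added base, over both classes of extension, was U in 40.3%, 40.8% and 34.4% of reads, 28.2%, 29.9% and 29.9% by distinct tags, and 39.9%, 40.4% and 34.1% without let-7. Reads per extension at equal depth were 86.5 in catagen and 107.5 in telogen, and 151, 157 and 242 over tags read at least 2 times. For the other tags they were 2.89 in telogen at equal depth, and 9.73, 11.4 and 13.2 over tags read at least 2 times.

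First base A of the other tags of 24 nt was 37.8%, 30.2% and 27.1% of distinct tags. Under settings chosen after seeing the data it was 31.9%, 26.9% and 25.1% by reads, 39.7%, 31.3% and 27.6% without relatives of deeply read tags, 28.1%, 27.1% and 26.3% at 25 nt in their place, and 26.8% in telogen at equal depth. Anagen stayed highest under each of these.

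Tags past 2-fold numbered 4124 between anagen and catagen, 4231 between anagen and telogen, and 3300 between catagen and telogen. They numbered 429, 414 and 426 with at least 100 reads in both libraries, 398867, 556944 and 540573 with no minimum, and 1934, 1686 and 1613 where the exact interval also lay past the limit. With no minimum, a tag absent from either library of a pair counts as past 2-fold however few its reads. Size factors gave 4029, 3836 and 3226 and moved every log2 ratio by 0.07, 0.11 and 0.04 in the 3 pairs. Of 111 ratios of named tags, 30 then left their interval. The number of tags tested and the share over all lengths are given for the main rule only. The counts under the other settings are therefore not rates and cannot be set against tags at large.

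No paired analysis was possible because each stage has 1 library. Leaving out a library would remove its stage.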
